A study of Caenorhabditis elegans with 2 samples.

Results

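The nuclear genome of Caenorhabditis elegans carries 99 annotated small nuclear RNA (snRNA) genes outside the spliced leader group, of 46890 nuclear genes in all. They were taken as every gene of the biotype snRNA in the Ensembl annotation of WBcel235, the assembly also called ce11, whose name does not start with sls-. The data were 2 chromatin immunoprecipitation and sequencing libraries, labelled as biological replicates 1 and 2, which form 1 group with no comparison group. Per the labels, the animals were whole young adults of strain RW12318 at 63 hours, grown from larvae starved at the first stage after bleaching. They carried lir-1 with a TY1, EGFP and 3xFLAG tag inserted at the gene itself by CRISPR, and the chromatin was sonicated to 200 to 800 bp and precipitated with an antibody against GFP. LIR-1 has zinc fingers like those of LIN-26, a protein needed for epidermal fate. Untagged animals were not analysed here, so a peak marks precipitated DNA and not binding as such, and whole animals do not show in which cells this took place.

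The snRNAs are the RNA parts of the spliceosome, the machine that removes introns. U1 pairs with the start of an intron and U2 with its branch point, while U4, U5 and U6 join as 1 particle, from which U4 leaves when U6 takes up its catalytic fold. RNA polymerase II makes U1, U2, U4 and U5, which carry a binding site for the ring of Sm proteins, and RNA polymerase III makes U6, which ends in a run of T. Both kinds of gene are read from a short upstream promoter element bound by the snRNA activating protein complex, and U6 genes add a TATA box. SmY RNAs are nematode Sm-class RNAs linked to spliced leader trans-splicing.

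The annotation names few of these genes by class, so each was placed by letters within its own sequence. ACTTACCTG, from the 5′ part of U1, was found in 12 genes. GTAGTA, from the branch point pairing stretch of U2, was found in 19. CTTTGCGC marked 5 U4 genes, GCCTTTTAC, from the loop of U5, marked 11, and ACAGAGA marked 22 U6 genes. Over the whole annotated sequence, W07G1.24 differs from its nearest U2 gene by 77 single-base edits. B0205.15 differs from its nearest U6 gene by 20, so the class of these genes is less sure. A further 10 genes are named smy- and are the SmY genes, and 20 held none of these letters. The last 20 include mir-1831, a 22 bp entry that bears the name of a microRNA and lies inside the U1 gene sup-39. The Sm-type letters ATTTTTG were present in 12 of 12 U1, 18 of 19 U2, 5 of 5 U4, 10 of 11 U5 and 10 of 10 SmY genes, against 0 of 22 U6 genes. A run of T around the 3′ end was present in 21 of 22 U6 genes and 2 of 10 SmY genes, against 0 of the U1, U2, U4 and U5 genes. Of the 20 genes without class letters, 4 held the Sm-type letters and 3 the run of T. These features, which the placing did not use, set most U6 genes apart from U1, U2, U4 and U5 genes, and do not tell those 4 classes from each other.

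A site is a peak of the authors' conservative set of 1209 reproducible peaks whose summit lay in the gene or within 200 bp of its 5′ end. By this rule 9 of 99 snRNA genes had a site, at 8 loci. The 100 bases before the 5′ end of 7 of those genes are shown first, on build ce11 and read 5′ to 3′ on the strand of the gene, because the summits lay in or beside them. Capitals mark 3 short patterns that recur at set places before snRNA genes, GCGNNNCCC, TGTCNG and TATATAA.
W05B2.8 (U6, chrIII:10989579-10989678, + strand): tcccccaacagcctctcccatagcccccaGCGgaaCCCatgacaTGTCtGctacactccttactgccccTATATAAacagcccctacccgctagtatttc
F54D8.7 (U6, chrIII:5080899-5080998, - strand): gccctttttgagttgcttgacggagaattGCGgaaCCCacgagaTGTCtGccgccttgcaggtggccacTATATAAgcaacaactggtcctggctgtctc
sup-6 (U1, chrII:12944968-12945067, - strand): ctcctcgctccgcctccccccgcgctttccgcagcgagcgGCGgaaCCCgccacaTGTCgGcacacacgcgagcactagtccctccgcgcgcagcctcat
sup-39 (U1, chrII:6968559-6968658, - strand): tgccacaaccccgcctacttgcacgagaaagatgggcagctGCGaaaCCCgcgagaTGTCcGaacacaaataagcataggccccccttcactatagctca
F38E11.10 (U5, chrIV:9444542-9444641, + strand): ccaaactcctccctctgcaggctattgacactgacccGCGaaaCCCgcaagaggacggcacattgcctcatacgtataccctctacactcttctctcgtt
C52E4.8 (U4, chrV:11980018-11980117, + strand): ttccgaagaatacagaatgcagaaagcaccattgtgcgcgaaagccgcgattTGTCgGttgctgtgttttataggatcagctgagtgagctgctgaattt
Y57G11C.35 (U2, chrIV:14765035-14765134, - strand): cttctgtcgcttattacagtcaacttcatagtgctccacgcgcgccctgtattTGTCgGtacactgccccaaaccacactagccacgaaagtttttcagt
Both U6 genes held all 3 patterns, both U1 genes held the first and second, F38E11.10 held only the first, and C52E4.8 and Y57G11C.35 held only the second.

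The RNA-coding sequences of 3 sited genes, 1 each of U1, U2 and U4, follow, in capitals at the letters that placed each in its class.
sup-6 (U1, chrII:12944803-12944967, - strand): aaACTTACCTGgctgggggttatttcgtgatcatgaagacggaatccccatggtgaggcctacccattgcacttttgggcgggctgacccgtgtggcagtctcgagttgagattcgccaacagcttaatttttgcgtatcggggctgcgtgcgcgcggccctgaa
Y57G11C.35 (U2, chrIV:14764848-14765034, - strand): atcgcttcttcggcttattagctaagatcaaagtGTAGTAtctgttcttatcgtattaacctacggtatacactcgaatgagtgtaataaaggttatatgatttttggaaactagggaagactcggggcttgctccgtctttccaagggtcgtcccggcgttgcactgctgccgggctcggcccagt
C52E4.8 (U4, chrV:11980118-11980261, + strand): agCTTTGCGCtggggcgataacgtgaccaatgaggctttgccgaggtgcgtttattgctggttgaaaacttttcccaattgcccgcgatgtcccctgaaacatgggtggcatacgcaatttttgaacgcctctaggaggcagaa
The genes are short, 22 to 187 bp over all members, so a peak of 280 bp, the width of every snRNA site, is longer than any of them.

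The share of snRNA genes with a site was 9.09% (exact binomial 95% interval 4.24 to 16.6%), against 2.43% of all other nuclear genes and 3.05% of protein-coding genes under the same rule. It lay below the share among other small RNA genes, which was 22.5% for tRNA genes, 17.6% for snoRNA genes and 33.3% for spliced leader RNA genes. Of these 3, the interval of the snoRNA genes, 13.8 to 22.1%, overlapped that of the snRNA genes. Counted within 200 bp of the 5′ end only, the same 9 snRNA genes had a site, 9.09%, against 1.83% of all other nuclear genes. With 1 group and no control samples, no test was made of these shares, which are given as descriptions. The intervals cover counting error only, and they treat gene copies as independent, which they are not.

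**Figure D1:**
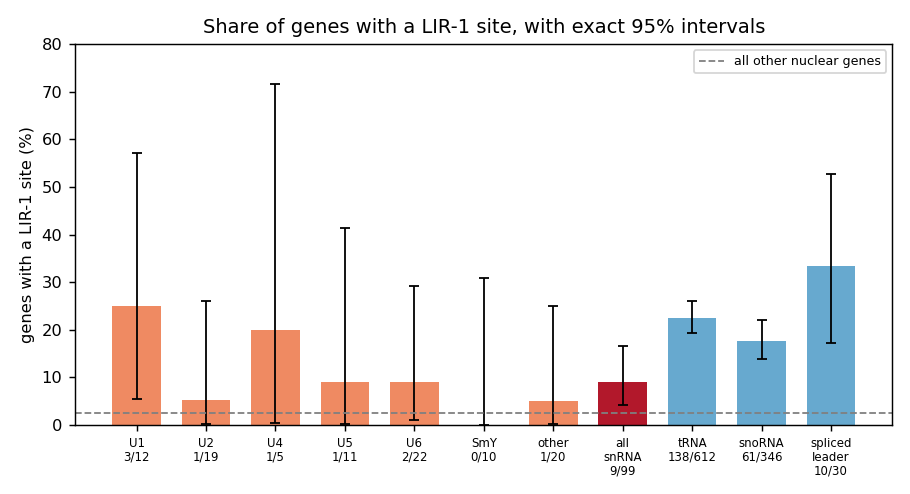
Share of genes with a LIR-1 site (y axis, percent) for each snRNA class and all snRNA genes, followed by tRNA, snoRNA and spliced leader RNA genes. Bars give the share, whiskers the exact binomial 95% interval, labels the genes with a site over all genes, and the dashed line all other nuclear genes at 2.43%. The whiskers of the snRNA classes are wide and overlap each other.

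Each class of the spliceosomal snRNAs had at least 1 gene with a site. The counts were 3 of 12 U1 genes, 1 of 19 U2 genes, 1 of 5 U4 genes, 1 of 11 U5 genes and 2 of 22 U6 genes. None of 10 SmY genes had one, which at this number of genes allows a share of up to 30.8% (exact binomial 95% interval). Of the 20 genes without class letters, the only one was mir-1831, by the site it shares with sup-39. The intervals of all classes overlapped, so no order of the classes can be read from these shares.

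The height of a peak is given below as signal, the score that the authors' peak caller wrote, first for each replicate from that replicate's own ranked list. These values cannot be set against the signal of both libraries together, which has its own scale. Whether the lists of the replicates share a scale is not stated, and depth is unknown. A difference between the replicates, and each SD, can therefore hold a difference between the lists. At W05B2.8, a U6 gene inside the dynein heavy chain gene dhc-4, the signal was 77.0 in replicate 1 and 80.2 in replicate 2, 78.6 ± 2.29 (SD, n = 2). At F54D8.7, the other U6 gene with a site, it was 49.8 in replicate 1 and 46.9 in replicate 2, 48.3 ± 2.06 (SD, n = 2). Both U6 sites therefore had nearly the same score in the 2 lists, and W05B2.8 was the higher of them in both.

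U1 genes were more uneven in these scores. sup-6, inside F58G1.7, had a signal of 75.0 in replicate 1 and 53.7 in replicate 2, 64.3 ± 15.0 (SD, n = 2). sup-39, inside C15F1.5, had 36.0 in replicate 1 and 60.9 in replicate 2, 48.4 ± 17.6 (SD, n = 2). Replicate 1 was thus the higher at sup-6 and the lower at sup-39, and the 2 ranges overlapped. These 2 genes are known from mutant alleles that suppress a splice donor mutation, and their annotated sequences differ by 5 single-base edits. H27M09.6 had 48.2 in replicate 1 and 31.1 in replicate 2, 39.7 ± 12.1 (SD, n = 2), the lowest mean of the 8 loci.

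The remaining classes had 1 site each. C52E4.8, a U4 gene, had a signal of 66.0 in replicate 1 and 55.7 in replicate 2, 60.8 ± 7.27 (SD, n = 2). F38E11.10, a U5 gene, had 60.0 in replicate 1 and 53.6 in replicate 2, 56.8 ± 4.56 (SD, n = 2). Y57G11C.35, the U2 gene, had 51.8 in replicate 1 and 54.1 in replicate 2, 52.9 ± 1.64 (SD, n = 2). In the order of the means over all 8 loci, each gene's mean ± SD overlapped that of the next. W05B2.8 was nevertheless above every other in both replicates.

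**Figure D2:**
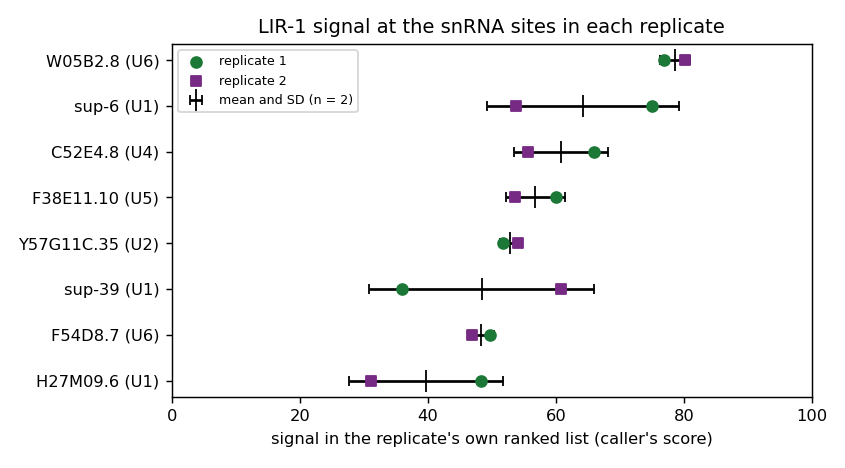
Signal of each snRNA site in the own ranked list of replicate 1 (circles) and of replicate 2 (squares), with the mean and SD (n = 2), by gene. W05B2.8 has the highest signal in both replicates, and sup-6, sup-39 and H27M09.6 have the widest spread.

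In the list of both libraries together the 8 loci stood in the same order as by the mean of the replicates. The W05B2.8 site, chrIII:10989519-10989798, had a signal of 165.3 and stood at rank 117 of 1209 with an irreproducible discovery rate (IDR, the estimated share of peaks ranked this high that would not recur in another replicate) of 1e-05. The sup-6 site, chrII:12944822-12945101, had a signal of 128.5 and rank 227. The C52E4.8 site, chrV:11979941-11980220, had 124.0 and rank 249, and the F38E11.10 site, chrIV:9444443-9444722, had 118.3 and rank 282. The U6 site thus led, and the U1, U4 and U5 sites followed within a narrow range.

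The Y57G11C.35 site, chrIV:14764964-14765243, had a signal of 108.5 and rank 349. The sup-39 site, chrII:6968408-6968687, had 99.8 and rank 427, and the F54D8.7 site, chrIII:5080772-5081051, had 88.7 and rank 570. H27M09.6 was last, with 80.8 and rank 704. The median over these 8 sites was 113.4, against 86.4 over all 1209 sites, and 7 of the 8 were above that median. These 8 sites thus ranked from 117 to 704, and none was among the 100 strongest. The weak second sites described next, at ranks 1176 and 1195, were left out of their median. Weak peaks were not left out of the median over all 1209 sites.

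W05B2.8 and C52E4.8 each had a second, weak site downstream. It lay 182 bases after the 5′ end of W05B2.8 with a signal of 15.0, and 162 bases after that of C52E4.8 with a signal of 6.64. Each overlapped the same peaks of the replicates' own lists as the strong site of its gene, so neither is an independent summit. With them the 10 distinct sites had a median signal of 104.1.

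All 8 loci were in replicate 1's own thresholded set of 828 peaks, and 6 were in that of replicate 2, which was shorter, with 580 peaks, and lacked F54D8.7 and H27M09.6. The summits of the replicates lay 9 to 93 bp apart. They were over 50 bp apart at 2 sites, H27M09.6 and Y57G11C.35, so a summit there is placed no better than that.

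Summits lay close to the 5′ ends. Over the 9 genes the strongest summit was at a median of -20 bases from the 5′ end, with a range of -70 to 10. It was upstream in 6 genes and at or after the 5′ end in 3. The 3 include sup-39 and mir-1831, so their shared summit is counted under both names, here and in the median. The U6 summits were at -20 (W05B2.8) and -14 (F54D8.7). The U4 summit was at -37, the U5 summit at -59 and the U2 summit at -70. The U1 summits were at 5 (sup-6), 10 (sup-39) and -44 (H27M09.6). At H27M09.6 the summit was at 21 in replicate 1 and at -72 in replicate 2. With 1 to 3 sites in a class, the spread of the classes cannot be compared.

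The patterns were set after the members' upstream bases had been seen, so a higher share in members than in other genes is no test. The first pattern, GCGNNNCCC, stood before 43 of 99 snRNA genes, 43.4%, with its first base at a median of -61, against 0.594% of the 46783 other genes with a full upstream stretch. It was found on the gene strand in the 100 bases before the 5′ end, before 11 of 11 U5, 8 of 12 U1, 8 of 10 SmY, 7 of 19 U2, 2 of 5 U4 and 5 of 22 U6 genes. The second, TGTCNG, stood before 53 of 99, 53.5%, at a median of -47, against 5.28% of other genes, and before 19 of 19 U2 genes. Spliced leader RNA genes also held it, 26 of 30. In U1, U2 and U6 genes the places were nearly fixed. The first pattern began at -60 or -59 before the 8 U1 genes that held it, at -61 before all 7 U2 genes and at -71 before all 5 U6 genes. The second began at -45 or -44 before 8 U1 genes, at -47 before all 19 U2 genes and at -56 or -55 before 12 U6 genes, so both lay further from the 5′ end in U6 than in U1 and U2 genes. U4 genes were as regular: the first pattern began at -63 before both holders and the second at -48 before all 4. Of these, F10D2.13 held the second again at -8. In U5 genes the first began at -63 to -60. The second began there at -47 or -46, at -68, or at 2 places in the same gene. In SmY genes the first pattern began at -63 to -57.

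The third, TATATAA, stood before 15 of 22 U6 genes and 0 of the U1, U2, U4, U5 and SmY genes. Its median start over all holders was -30.5, and 2.4% of other genes held it. TATAAA, a shorter TATA form, stood before 9 of 22 U6 genes and 12 of 99 members, 12.1%, near the 10.9% of other genes. Among members, both TATA forms were thus found before U6 genes and before genes without class letters.

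Genes with and without a site shared these patterns. The first stood before 6 of 9 snRNA genes with a site and 37 of 90 without, and the second before 8 of 9 with a site and 45 of 90 without. Both in this order, with at most 12 bases between them, stood before 5 of 9 with a site and 17 of 90 without, against 0.0855% of other genes. Each of these sited counts includes both sup-39 and mir-1831, which share 1 site and most of their upstream bases, so that locus counts under both names. A match says only that the letters are there. From the first base of the second pattern, the summit lay -23 bases at Y57G11C.35 and 1 at H27M09.6. It lay 11 at C52E4.8, 36 at W05B2.8, 42 at F54D8.7, 50 at sup-6 and 54 at sup-39. The replicates' own summits were themselves 9 to 93 bp apart, and over 50 bp apart at Y57G11C.35 and H27M09.6. Whether the summits keep 1 distance to the pattern can thus not be told.

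**Figure D3:**
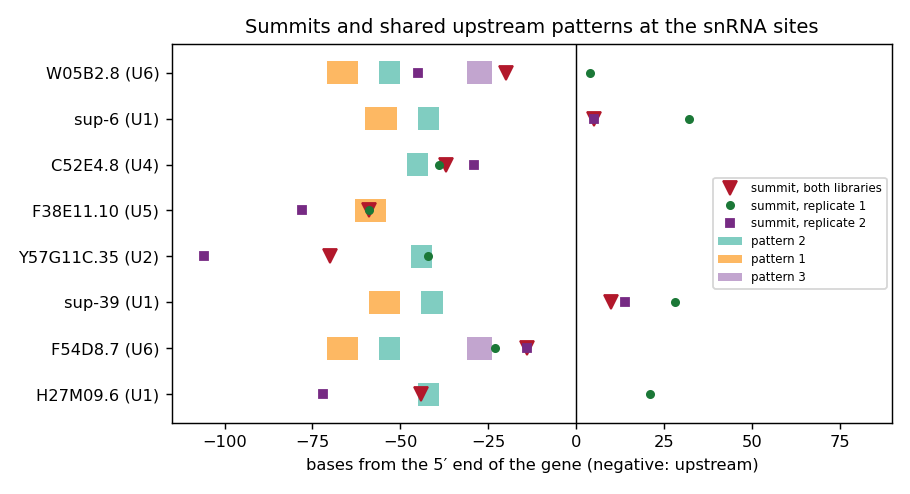
Places of the summits (triangles, both libraries together; circles, replicate 1; squares, replicate 2) and of the shared patterns (bars) relative to the 5′ end of each gene with a site, in bases, negative upstream. Pattern 1 is GCGNNNCCC, pattern 2 is TGTCNG and pattern 3 is TATATAA. The patterns line up within a class more closely than the summits of the replicates do.

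Around the summits themselves, TGTCNG was within 100 bases on either strand at 7 of 10 sites of snRNA genes, against 8 of 10 sites of spliced leader RNA genes and 373 of 1189 other sites (31.4%). GCGNNNCCC was there at 5 of 10 snRNA sites, against 4 of 10 spliced leader sites and 134 of 1189 other sites (11.3%). The 10 snRNA sites include the weak second ones, which lie in or past the gene. As the patterns were set on the upstream bases of snRNA genes, their higher share at snRNA sites is a description only.

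Below the threshold, peaks lay at more snRNA genes, but at many other genes too. Counting genes with a site too, a ranked peak of any IDR lay in the same window at 40 of 99 snRNA genes, 40.4%. The share of all other nuclear genes, also with sited genes included, was 32.3%. This window takes in the whole gene, so a longer gene has more room for a peak than a short snRNA gene. A share within 200 bp of the 5′ end only was not counted for ranked peaks. The shares of 40.4% and 32.3% are thus not like for like, and how far snRNA genes differ from other genes cannot be read from them. Of the 40, 31 had no site, and 59 snRNA genes had no ranked peak in this list of both libraries. Of those 59, 17 had a peak in the ranked list of 1 replicate alone, with signals of 10.8 to 29.9 on that list's scale, and 0 had one in the lists of both. By class the 40 were 7 of 12 U1, 11 of 19 U2, 3 of 5 U4, 6 of 11 U5, 6 of 22 U6, 3 of 10 SmY and 4 of 20 genes without class letters. The median strongest signal of the 31 was 36.5, against 28.4 over all ranked peaks.

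**Figure D4:**
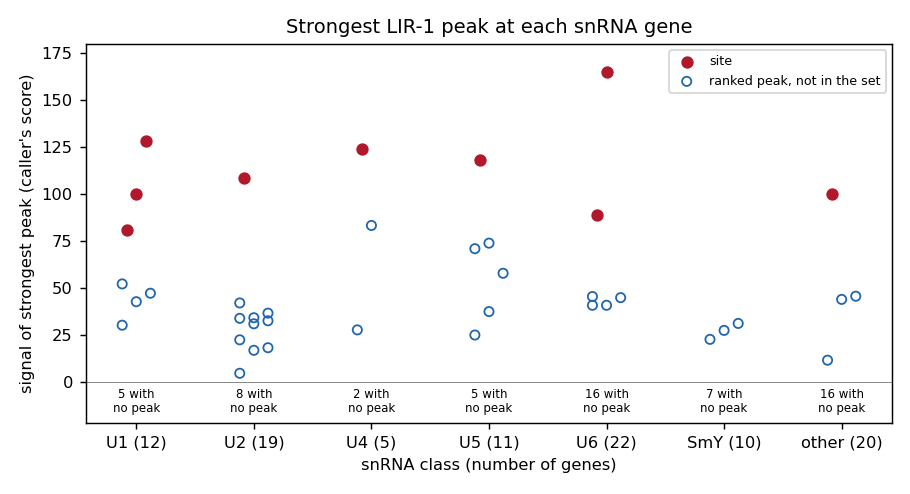
Signal of the strongest ranked peak at each snRNA gene, both libraries together, by class. Filled circles are genes with a site, open circles genes with a ranked peak that is not in the conservative set, and the text below gives the genes with no ranked peak. Most open circles lie under 50, and the highest, a U4 gene at 83.2, lies above the lowest filled one at 80.8.

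The 5 strongest genes without a site were 3 U5 genes, 1 U4 gene and 1 U1 gene. F10D2.13 (U4) had a signal of 53.1 in replicate 1 and 24.9 in replicate 2, with a summit at -22, a signal of 83.2 in both libraries together and an IDR of 0.0401. ZK897.4 (U5) had 42.5 in replicate 1 and 26.5 in replicate 2, with a summit at -43, 73.8 in both together and an IDR of 0.0194. F42C5.12 (U5) had 37.3 in replicate 1 and 22.6 in replicate 2, with a summit at 2 and 70.8 in both together. In each, the score was higher in the list of replicate 1, whose scale may differ from that of replicate 2.

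ZK897.2 (U5) followed, with 40.9 in replicate 1 and 17.1 in replicate 2, and 57.7 in both together. T08G5.11 (U1) had 20.5 in replicate 1 and 30.7 in replicate 2, and 52.1 in both together, with a summit at 38. Just inside the threshold stood H27M09.6, with an IDR of 0.00394, and just outside ZK897.4 with 0.0194, while F10D2.13 had a higher signal than H27M09.6. The largest IDR in the conservative set was 0.00997. Signal and IDR thus did not put these genes in the same order.

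U2 genes had 1 site and many low peaks. Apart from Y57G11C.35, the 10 U2 genes with a ranked peak had signals of 4.4 to 41.9. U5 genes were spread more evenly, with 24.8 to 73.8 in the 5 that had a ranked peak and no site. SmY genes were low, with 22.5 to 31.0 in 3 genes. The paired U6 genes T20D3.12 and T20D3.13, which overlap at their 5′ ends, shared 1 ranked peak with a signal of 40.7.

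The 99 genes carry 74 distinct sequences: 67 genes have a sequence of their own, and 7 sequences are carried by 32 genes in copies. Sites fell on 5 genes of the first kind and 4 of the second. The largest family is a U6 sequence in 14 copies, of which W05B2.8 had a site, R07E5.16 and C28A5.7 had ranked peaks with signals of 45.3 and 44.7, and 11 had none in the list of both libraries. Of those 11, 4 had a peak in 1 replicate's own list, with signals of 10.8 to 19.9. Of the 3 copies of a second U6 sequence, F54D8.7 had a site and Y17G9A.85 and T08B6.62 had no ranked peak in the list of both libraries, though T08B6.62 had a peak of 21.7 in that of replicate 1. In both U6 families 1 copy had a site.

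Pairs of U4 and U5 genes were split likewise. C52E4.8 had a site, and T11F9.15, with the same U4 sequence, had no ranked peak in the list of both libraries and a peak of 17.6 in that of replicate 2. F38E11.10 had a site, and F38E11.11, with the same U5 sequence, had no ranked peak in any of the 3 lists. ZK897.2 had a ranked peak and F07C6.5, its copy, had one of 12.3 in the list of replicate 2 alone. The 7 copies of the main U2 sequence held 0 sites and 6 genes with a ranked peak, up to 36.5 at W07G1.8, and F56H6.14 had a peak of 18.6 in the list of replicate 1 alone. The pair F15H9.5 and F15H9.6 had no ranked peak.

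Copies differed in how alike the bases before the gene were, counted place by place without gaps. The 100 bases before W05B2.8 matched those of its most similar copy at 53% of places, against 68 to 99% among the other 13 copies. F54D8.7 matched at 52%, against 83% for both others. The C52E4.8 pair matched at 37% and the F38E11.10 pair at 30%, values that the unsited copy of a pair shares. The first pattern begins at -63 before F38E11.10 and at -62 before F38E11.11, so its letters are out of register in this count. Low values can thus understate how alike 2 stretches are. Among families with no site, the U2 pair F15H9.5 and F15H9.6 matched at 100%, the U5 pair ZK897.2 and F07C6.5 at 88%, and the 7 U2 copies at 66 to 98%. The upstream stretches of unsited copies are shown for comparison, with capitals as before.
F38E11.11 (U5, chrIV:9464639-9464738, - strand): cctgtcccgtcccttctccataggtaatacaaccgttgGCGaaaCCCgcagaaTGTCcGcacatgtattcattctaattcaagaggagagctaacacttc
T11F9.15 (U4, chrV:11478048-11478147, + strand): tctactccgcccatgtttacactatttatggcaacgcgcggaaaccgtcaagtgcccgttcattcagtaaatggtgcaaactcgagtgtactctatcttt
K09B11.12 (U6, chrIV:13438997-13439096, + strand): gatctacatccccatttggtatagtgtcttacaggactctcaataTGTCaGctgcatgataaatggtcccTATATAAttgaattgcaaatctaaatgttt
R07E5.16 (U6, chrIII:4414085-4414184, + strand): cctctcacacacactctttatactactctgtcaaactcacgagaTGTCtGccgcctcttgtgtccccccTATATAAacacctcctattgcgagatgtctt
Y17G9A.90 (U6, chrIV:4866711-4866810, + strand): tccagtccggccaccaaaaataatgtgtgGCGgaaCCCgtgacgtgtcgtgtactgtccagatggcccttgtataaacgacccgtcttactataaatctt
F38E11.11, which had no ranked peak, holds the first and second patterns, and F38E11.10, which had a site, holds only the first. K09B11.12 and R07E5.16 lack the first pattern that W05B2.8 and F54D8.7 hold. Y17G9A.90, a copy of W05B2.8, has no site and holds it at the same place, -71. So do Y17G9A.85 and T08B6.62, the unsited copies of F54D8.7. The first pattern alone thus does not mark the sited copy. Y17G9A.90, Y17G9A.85 and T08B6.62 lack the second pattern. Both patterns in order stood before 2 of 22 U6 genes, W05B2.8 and F54D8.7, the U6 genes with a site. In the U5 pair it is the unsited copy that holds both. Whether holding both goes with a site was not tested.

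**Figure D5:**
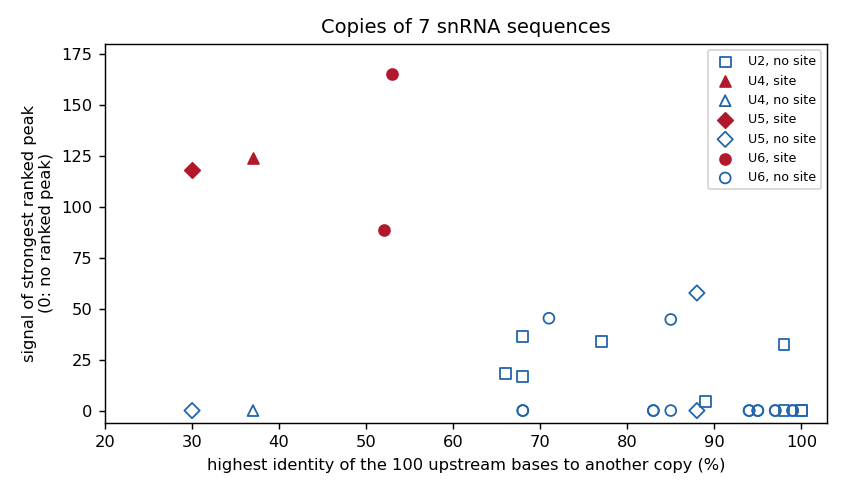
Signal of the strongest ranked peak (y axis, 0 where there is none) against the highest identity of the 100 upstream bases to those of another copy (x axis, percent) for the 32 genes that share their sequence with another. Filled symbols are the 4 genes with a site, at 30 to 53% identity, and open ones the 28 without, at 30 to 100% identity, whose signals reach 57.7. The 2 genes of a pair have the same identity by construction. Identity was counted without gaps, so shifted stretches score low.

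Repeated sequence bears on what could be measured. Whether a stretch of 50 bases occurs once in the genome was counted over each gene and over the 200 bases before it. All 9 genes with a site had only unique stretches upstream, against 22 of 31 with a ranked peak alone and 35 of 59 with no ranked peak. Of the U6 genes, 2 of 2 with a site had only unique stretches upstream, against 7 of 20 without. Gene bodies were mostly repeated: over the 8 sited genes long enough to count, a median of 18.6% of stretches was unique, and in 4 of them none was. The labels and files do not state how reads with several matches were treated, and the part of repeated sequence in these counts was not tested.

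The nearest gene of the same class on the chromosome lay at a median of 572813.5 bp for genes with a site, against 6511 bp for those without. Genes alone in their class on a chromosome, H27M09.6 among them, were left out. Genes without class letters, mir-1831 among them, were taken as 1 class here. Inside a protein-coding gene lay 5 of 9 genes with a site, against 56 of all 99. The sited genes were on chromosomes I to V, 1 of them, H27M09.6, on chromosome I at 6847137 to 6847303. Its site is also 164 bp from the 5′ end of syp-4, a synaptonemal complex gene, so the 2 genes cannot be told apart as its place. Annotated ncRNA genes had a 5′ end within 200 bp of the summit at sup-6 (F58G1.11 and F58G1.12) and sup-39 (C15F1.14). The same held at C52E4.8 (C52E4.14) and F38E11.10 (F38E11.24), so these sites too cannot be given to the snRNA gene alone. The C52E4.8 site lies 358 bp from the 5′ end of snr-4, an Sm protein gene, outside the window of that gene.

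Protein genes of the same pathway were looked at by the same rule. Of 25 listed genes of the snRNA activating protein complex, the Sm ring and the snRNP proteins, 24 were found in the annotation, and 1 had a site, a share near the 3.05% of all protein-coding genes. It was snpc-3.4, a gene of the snRNA activating protein complex, with a summit at -45 and a signal of 128.2 in both libraries together. The other 23, snpc-4 and prp-8 among them, had no site in the window.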

How the data were processed

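Chromatin immunoprecipitation was measured in 2 libraries of 1 group, replicates 1 and 2. The deposited files are peak lists on ce11, per the labels. Per the manifests deposited with the samples, the peaks came from filtered alignments with a control alignment that was not used here. For the aligner, the caller and their versions, nothing is given in the sources used here. The authors deposited for each peak a signal, a score whose scale is not stated, and in the ranked lists −log10 of the global IDR. Both are the authors' values, used to describe and order peaks within a list. The signal of the replicates' own lists was not set against that of the whole-series lists. Both whole-series sets gave the same signal for the 966 peaks they share. A further 16 columns of the whole-series ranked lists carry no sample name and were not used. No read totals are in the files used, so depth is unknown.

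Gene models came from Ensembl release 115, and gene names were read from RefSeq by gene ID for 99 of 99 members, since 32 share an Ensembl name. The summit is the start plus its offset, and its position is the distance to the 5′ end on the gene strand, where 0 is the first base. For each site, the replicate signals come from the overlapping peak of each replicate's own list with the nearest summit. The placing was tested on simulated summits, with 200 of 200 placed correctly and 0 of 200 outside the window called. Letters were searched on the gene strand in the gene and its 100 upstream bases. The recurring patterns were set after 7-mers at shared places had been counted and the members' upstream bases seen. The U1 letters first listed, ATACTTACC, were held by 0 members, so ACTTACCTG was taken in their place after the sequences had been seen. A run of T means TTTT in the stretch from the last 4 bases of the gene to 10 bases after it. Identity was counted without gaps over 100 upstream bases. Intervals are exact binomial (Clopper-Pearson) at 95%. All scripts ran in Python 3.11.15 with pandas 2.3.3, NumPy 2.4.6, SciPy 1.17.1 and matplotlib 3.10.9.

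The members and lists were chosen with earlier results of these data known. Named were all members with a site, the 5 strongest ranked peaks among the others, and the strongest and 1 unmarked copy of each repeated sequence, with further members of small groups named after their values were seen. The gene sequences of the U5 and U6 members are not reported here. No test was made. Alternatives covered the peak set, either replicate alone, the window, the overlap rule and the members included.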

Additional observations from a re-analysis of the deposited data

How the results depend on the processing

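The number of snRNA genes with a site stayed within 7 to 12 under all alternatives tried, against 9 by the main rule. The authors' other set gave 12, adding F10D2.13, F42C5.12 and ZK897.4, and the stronger 50% of the conservative set gave 8, without H27M09.6. Replicate 1's list alone gave 11 and replicate 2's gave 7. Windows of 100 and 500 bp gave 9, as did the overlap rules, and the nearest snRNA gene only gave 8. Chosen after seeing the data, leaving out mir-1831 gave 8 of 98, keeping genes with class letters gave 8 of 69, keeping genes with unique upstream stretches gave 9 of 66, and leaving out sites whose replicate summits lay over 50 bp apart gave 7. The median summit position stayed between -29 and -13. Measured from the 3′ end it was -159, a change of reference point. The median signal, 104.1, moved to 94.2 in the other set, 118.3 in the stronger 50% and 113.4 with the 100 bp window, which leaves out the weak downstream sites. In the replicates' own lists, on another scale, it was 52.4 to 54.9. Ranked peaks lay at 35 to 46 snRNA genes, against 40. No paired analysis was possible because there is 1 group. With depth unknown, a gene without a peak cannot be called unbound, and with 2 replicates each SD rests on 2 values.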
